A study of Mus musculus with 11 samples.

Results

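Skeletal muscle genes were followed in RNA of whole mouse back skin, as a measure of the muscle that comes with a piece of skin. The 35 members were a given list of gene symbols, matched by symbol in the gene tables, and all 35 were found among 24411 genes. The list holds 13 genes typical of fast fibers and 3 of slow fibers (Myh7, Tnnt1 and Tnnc1), and the other 19 serve striated muscle more generally. Mouse skin has a thin sheet of striated muscle under the dermal fat, the panniculus carnosus, which twitches the skin. Striated muscle contracts when thick filaments of myosin pull on thin filaments of actin, a step that calcium and the troponin complex switch on. Fibers are fast or slow mainly by the myosin heavy chain they make, and fast fibers of the mouse use the IIA, IIX and IIB chains. The libraries do not tell which muscle the transcripts came from, since the members are shared by skeletal muscles of the trunk and limbs.

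Expression was compared between 4 samples of the tdTomato-positive group and 7 of the tdTomato-negative group. All hosts were Tg(act-EGFP)Y01Osb mice, aged 16-18 in a unit the labels leave out, which received 10 Gy of irradiation and then, through the tail vein, cells of femoral marrow from Pdgfra-Cre;tdTomato mice. In these donors tdTomato marks cells with a history of Pdgfra-Cre activity, and the injected cells had been sorted as tdTomato-positive or tdTomato-negative. Both groups recovered for 6 weeks, then had dermatitis induced on the back with 6 applications of MC903, a vitamin D analog, and gave skin on day 14. The skin kept its host cells, and the labels do not say how deep the pieces were taken. Whether the samples are separate animals is not labelled, and p-values then cover only sample-to-sample spread, which may be technical. Expected counts, the reads that RSEM assigns to a gene, summed to 7228968 to 9749842 per sample in the positive group and 7190752 to 8705435 in the negative group.

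Levels are compared between genes in TPM, a unit scaled to library size and corrected for transcript length. Muscle transcripts were detected in every sample, and the 3 slow genes were far below the 13 fast ones. The fast genes summed to 3879 ± 1056 TPM (SD, n = 4) in the positive and 2923 ± 1183 TPM (SD, n = 7) in the negative group, and the slow genes to 2.17 ± 1.30 and 0.746 ± 0.615 TPM. Of all expected counts, 1.61 ± 0.424% (SD, n = 4) fell on the 35 genes in the positive group and 1.27 ± 0.551% (SD, n = 7) in the negative group. Counts are not corrected for length, so long transcripts such as Ttn weigh heavily. Without Acta1, Ckm and Ttn these shares were 0.825 ± 0.246% and 0.635 ± 0.258%. In positive replicates 1 to 4 the share of all 35 genes was 1.63%, 1.09%, 2.13% and 1.58%. In the negative group it ran from 0.675% over a median of 1.09% to 2.40%, and the groups overlapped. Both the lowest share (negative replicate 2) and the highest (negative replicate 7) were in the negative group. In bulk RNA, fewer muscle fibers and less muscle RNA per fiber cannot be told apart.

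Summed over the members, positive replicates 1 to 4 had 6175, 4676, 9028 and 5936 TPM. The negative group had 2680 TPM at the lowest, 4090 at the median and 9232 at the highest. Acta1, the skeletal muscle actin of the thin filament, had the highest mean of all members at 753 TPM over the 11 samples, followed by the fast heavy chain Myh1 at 661 and fast troponin C (Tnnc2) at 447 TPM. Myh1 and Acta1 did not differ beyond their spread: Acta1 ranged from 347 to 1326 TPM and Myh1 from 284 to 1199 TPM over the samples.

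**Figure D1:**
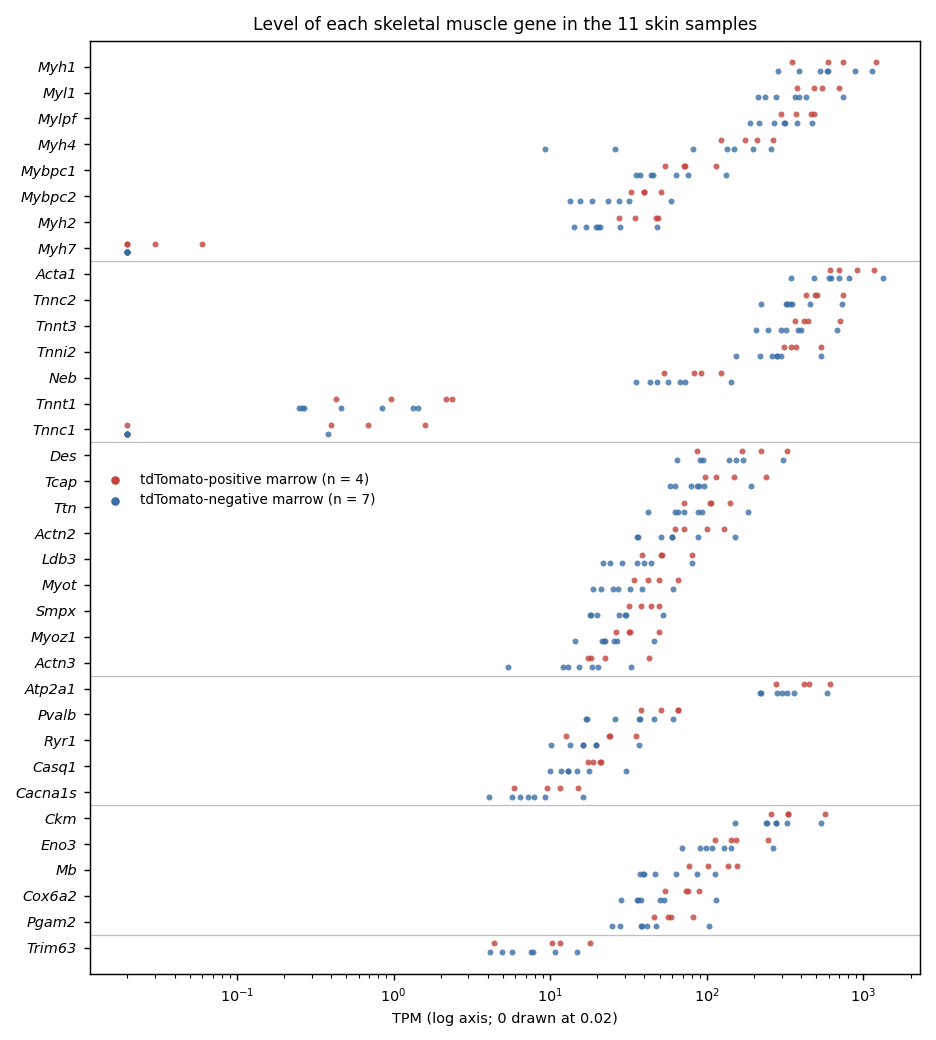
TPM of each of the 35 members in every sample, on a log axis with 0 drawn at 0.02, with genes grouped by role (thick filament, thin filament, titin and Z-disc, calcium handling, energy, protein turnover) and ordered by mean. Red points are tdTomato-positive and blue points tdTomato-negative samples. The slow genes Myh7, Tnnt1 and Tnnc1 lie at or below 2.35 TPM, while every other member reaches at least 16.15 TPM in some sample, and the groups overlap throughout.

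The slow-fiber genes were at or near 0. Myh7, the slow (type I) heavy chain, had 2 and 1 counts in positive replicates 1 and 2 and 0 in the other 9 samples, where a count of 0 allows up to 3 counts. Tnnt1, slow troponin T, had 10, 4, 2 and 8 counts in positive replicates 1 to 4 and 1 to 6 counts in the negative samples. Tnnc1, troponin C of slow and cardiac muscle, had 4, 1, 2 and 0 counts in the positive group and 1 count in the whole negative group, in replicate 4. None of the 3 passed the filter on low counts, so they were left out of the fit by group. A fit without the filter put all 3 higher in the positive group, and 0 passed. Its unadjusted p was 0.0124 for Tnnc1, 0.0597 for Myh7 and 0.0817 for Tnnt1, and edgeR's adjusted p was 0.302, 0.370 and 0.404 in that order. Fold changes are not given, since at these counts they depend on the prior count. Together they made up 0.0210% to 0.107% of the summed TPM of fast and slow genes in the positive samples and 0.00853% to 0.0575% in the negative samples. No difference passed the threshold at counts this low.

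Other genes linked to slow fibers had mixed levels. Of 9 such genes outside the members, 6 passed the filter and 0 passed the adjusted threshold. The slow myosin light chains Myl2 and Myl3 stayed at or under 1.53 and 0.60 TPM in every sample. The most abundant of the list, Tpm3 (a tropomyosin) and Atp2a2 (the calcium pump SERCA2), averaged 154 and 153 TPM, but many cell types other than muscle make both. Between these lay Myoz2, a Z-disc gene, at a mean of 11.35 TPM, Casq2, a calcium store of slow and cardiac muscle, at 8.98 TPM, and Ankrd2, an ankyrin-repeat gene of muscle, at 7.73 TPM. They reached 23.45, 11.83 and 17.47 TPM in their highest samples, and were named after their values were seen. Tnni1, slow troponin I, had 1.65 ± 1.19 TPM (SD, n = 4) in the positive and 3.96 ± 2.14 TPM (SD, n = 7) in the negative group, with an edgeR adjusted p of 0.270. Mybpc1, a member that encodes the slow type of myosin-binding protein C, did not share the low level of the slow genes. It had 71.7, 54.1, 114 and 72.3 TPM in positive replicates 1 to 4, and 35.3, 45.6 and 133 TPM as the lowest, median and highest of the negative group. Its fast counterpart Mybpc2 was lower, at 39.8, 32.6, 50.9 and 39.6 TPM in the positive group, and 13.4, 23.6 and 59.2 TPM in the negative group in the same order.

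Markers of heart muscle were low as well. Of 9 genes listed for cardiac muscle, Nkx2-5 was at 0 in all samples and Myh6, the alpha heavy chain of heart, never passed 0.07 TPM. The 2 most abundant, Nppb (a natriuretic peptide) and Tnni3 (cardiac troponin I), averaged 3.91 and 1.39 TPM. The summed level of the 9 genes was 3.65 to 9.37 TPM in the positive and 3.97 to 12.5 TPM in the negative samples.

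Among the heavy chains, Myh1 (type IIX) led in every sample. It had 592, 350, 1199 and 738 TPM in positive replicates 1 to 4, and 284, 588 and 1129 TPM as the lowest, median and highest of the negative group. Myh2, the IIA chain of fast fibers with more mitochondria, had 27.6, 47.4, 48.9 and 34.9 TPM in the positive group. In the negative group it had 14.1, 20.1 and 48.0 TPM in the same order. The groups overlapped in either gene. Positive replicate 3 and negative replicate 7 were the highest in Myh1, and with positive replicate 2 they were the highest in Myh2.

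Myh4, the IIB chain of the fastest fibers, varied more than any other tested member. It had 263, 123, 175 and 208 TPM in positive replicates 1 to 4. In negative replicates 1 to 7 it had 198, 81.8, 149, 134, 25.8, 9.28 and 257 TPM. Negative replicates 5 and 6 were far below the other 9 samples, and the highest sample had 28.3 times the level of the lowest. Over all members, negative replicate 5 had 5072 TPM, above the negative median of 4090, and negative replicate 6 had 3828 TPM, the second lowest sum of the 11 samples.

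The 3 fast heavy chain genes lie next to each other on chromosome 11 of GRCm38.p6, Myh2 from 67171027 to 67197517, Myh1 from 67200102 to 67224577 and Myh4 from 67237812 to 67260447. The 250 bases before each annotated start are shown because these neighbours differ in level by sample while sharing sequence. The sequences are those of RefSeq on GRCm38.p6, plus strand, in which 27 of the 35 members had an entry. Capitals mark the longest run of bases that all 3 share and each match to TATAAA on either strand.
Myh1, chr11:67199852-67200101: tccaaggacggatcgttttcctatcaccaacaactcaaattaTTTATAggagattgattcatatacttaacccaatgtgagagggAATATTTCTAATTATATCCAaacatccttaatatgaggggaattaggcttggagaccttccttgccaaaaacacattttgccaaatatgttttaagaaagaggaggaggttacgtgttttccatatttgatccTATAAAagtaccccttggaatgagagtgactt
Myh2, chr11:67170777-67171026: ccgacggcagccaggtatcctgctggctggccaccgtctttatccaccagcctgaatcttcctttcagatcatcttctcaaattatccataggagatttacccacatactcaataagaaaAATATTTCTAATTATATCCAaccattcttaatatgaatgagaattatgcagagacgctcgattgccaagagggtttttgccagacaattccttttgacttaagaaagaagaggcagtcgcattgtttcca
Myh4, chr11:67237562-67237811: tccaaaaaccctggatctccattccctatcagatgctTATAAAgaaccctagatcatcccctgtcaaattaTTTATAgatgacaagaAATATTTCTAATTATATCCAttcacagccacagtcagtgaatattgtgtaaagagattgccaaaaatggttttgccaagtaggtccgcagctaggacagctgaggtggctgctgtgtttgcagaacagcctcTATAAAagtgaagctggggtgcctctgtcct
The shared run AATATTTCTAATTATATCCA is 20 bases long and begins 165 bases before the start in Myh1, 130 in Myh2 and 163 in Myh4. Of 32851 promoter windows of this length, 3 hold it (0.00913%), and these are the windows of Myh1, Myh2 and Myh4. TATAAA is found in 12.4% of the windows, and in Myh1 and Myh4 it begins 32 and 31 bases before the start. The Myh2 window does not hold it. The E-box letters CANNTG, a core bound by myogenic factors, are in 66.2% of the windows, and in Myh4 they begin 221 and 67 bases before the start. They are absent from the windows of Myh1 and Myh2 and present in each window of Myh7. Neither window of Myh7 holds the shared run or TATAAA. These matches are descriptions of the letters only.

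The same likeness runs through the transcripts, which bears on how reads were divided between them. Of the 50-base stretches in the transcripts of Myh4, 18.9% also occur in a transcript of another gene, chiefly Myh1 and Myh2. For Myh1 and Myh2 the shares were 25.4% and 26.9%. Estimated counts of these genes therefore carry an uncertainty that the tables do not state. Among the other tested members only Myl1 (16.0%, from a pseudogene) and Acta1 (2.02%) shared more than 1% of such stretches.

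As a share of the summed TPM of the 4 heavy chains, Myh4 made up 29.8%, 23.6%, 12.3% and 21.2% in positive replicates 1 to 4. Negative samples had 32.9%, 21.2%, 21.3%, 17.8%, 2.76%, 1.51% and 17.9% of Myh4 in replicates 1 to 7. Myh1 made up 95.1% and 95.7% in negative replicates 5 and 6, against 64.7% to 78.7% in the other negative samples. The share of Myh2 was 9.11% in positive replicate 2, against 3.13% to 3.56% in positive replicates 1, 3 and 4. Negative samples had 2.15% to 5.11% of Myh2. These shares were added after the levels had been seen and carry no test.

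**Figure D2:**
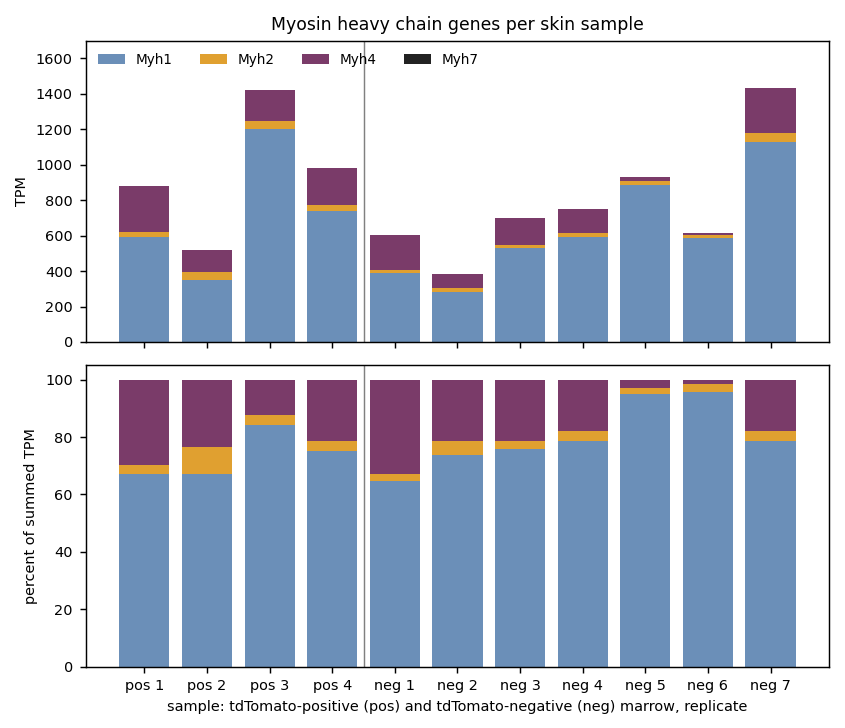
Summed TPM of the 4 myosin heavy chain genes in each sample (top) and each gene as a percent of that sum (bottom), with the tdTomato-positive samples on the left. Myh4 makes up 2.76% and 1.51% of the sum in negative replicates 5 and 6 and 12.3% to 32.9% in the other 9 samples, and Myh7 is not visible on this scale.

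Of the 13 fast genes, 5 lay below their negative median in negative replicate 5 (Myh4, Actn3, Pvalb, Mybpc2 and Casq1) and 11 in negative replicate 6. Tnnt3, Myl1, Tnnc2 and Tnni2 lay above it in replicate 5. Actn3, the fast-fiber alpha-actinin of the Z-disc, had 42.9, 17.5, 22.5 and 18.2 TPM in positive replicates 1 to 4. In the negative group it had 5.37 TPM in replicate 6 and 12.1 TPM in replicate 5, a median of 15.2 and a highest value of 32.6 TPM. Pvalb, parvalbumin, which binds calcium and speeds relaxation, had 65.7, 51.3, 65.8 and 37.8 TPM in the positive group. It had 16.99 and 17.3 TPM in negative replicates 5 and 6 and 25.9 to 61.0 TPM in the other negative samples. Mybpc2 had its lowest level in negative replicate 6, while its 18.4 TPM in replicate 5 lay above the 15.4 TPM of replicate 2.

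Set against the mean log2 CPM (counts scaled to library size) of the 32 tested members in the same sample, most members kept a steady place. The SD of this relative level over the 11 samples had a median of 0.22 and was under 0.2 for 14 members. It was smallest for Tnnc2, at 0.11. It was largest for Myh4 (1.25), followed by Actn3 (0.52), Pvalb (0.48), Myh1 (0.43), Mb (0.41) and Myh2 (0.38). In negative replicates 5 and 6 the relative level of Myh4 was 0.09 and -0.87, against 1.86 to 3.15 in the other samples. In positive replicate 2 that of Mb was -0.38 and that of Myh2 0.86, each the highest of all samples. In every member the relative levels of the 2 groups overlapped.

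**Figure D3:**
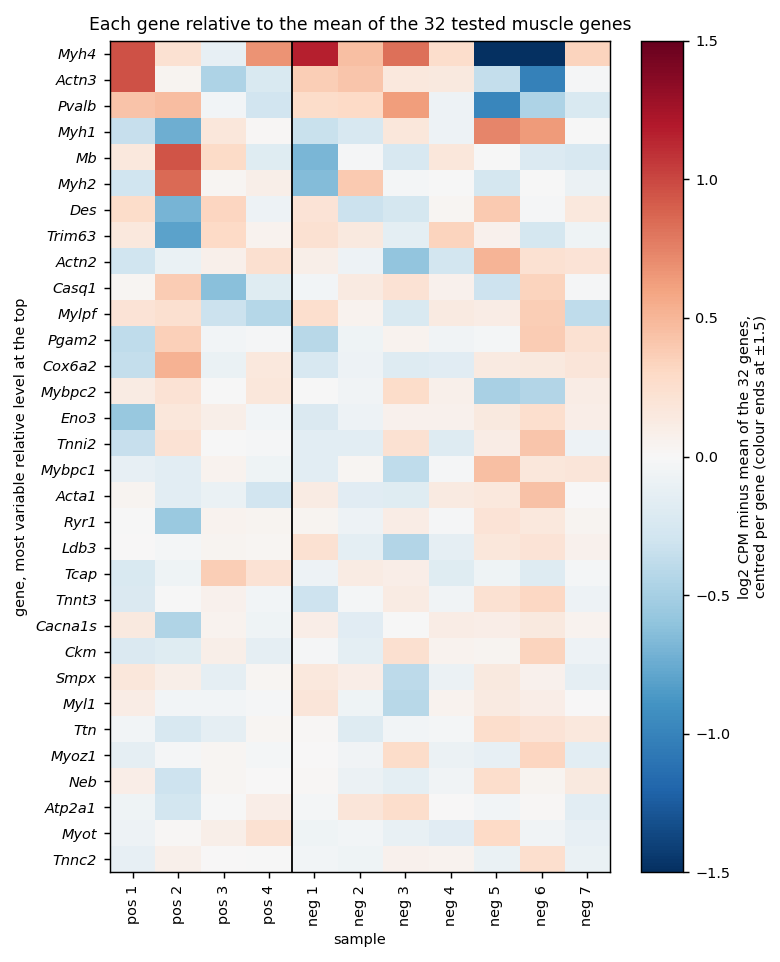
Level of each tested member relative to the mean log2 CPM of the 32 tested members in the same sample, centred per gene, with the most variable gene at the top and the tdTomato-positive samples on the left. Red is high and blue is low, with colours ending at ±1.5. Myh4, Actn3 and Pvalb are low in negative replicates 5 and 6, and Mb and Myh2 are high in positive replicate 2.

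Negative replicates 5 and 6 were also the most alike of all 55 pairs of libraries, with a chi-square per degree of freedom of 3.57 over genes, next to 6.36 for the second closest pair. They were not copies of one library, for which a value near 1 would hold. What part a shared origin had in their low Myh4 was not tested.

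Over the 11 samples, Myh4 was set against 5 genes on the log2(TPM + 1) scale with permutation tests, adjusted over the 5. With Myh11, the heavy chain of smooth muscle, Pearson's r was 0.70 (two-sided permutation p = 0.0131, adjusted p = 0.0654) and Spearman's rho 0.77 (permutation p = 0.00764, adjusted p = 0.0382). Without negative replicates 5 and 6, the samples farthest from the median of Myh4, r with Myh11 was 0.68, and within the 7 negative samples it was 0.73. With Acta1, r was 0.36 (permutation p = 0.272, adjusted p = 0.340) and rho 0.59 (permutation p = 0.0612, adjusted p = 0.102). Without those 2 samples r with Acta1 was 0.75, and within the negative group it was 0.26. With Tchh, a hair follicle gene, r was -0.54 (permutation p = 0.0758, adjusted p = 0.190) and rho -0.55 (permutation p = 0.0817, adjusted p = 0.102), and r was -0.42 without the 2 samples and -0.59 within the negative group. With Adipoq, a gene of fat cells, r was 0.44 (permutation p = 0.172, adjusted p = 0.286) and rho 0.60 (permutation p = 0.0558, adjusted p = 0.102), and r was 0.50 without the 2 samples and 0.26 within the negative group. With Myh7, r was 0.28 (permutation p = 0.381, adjusted p = 0.381), but Myh7 was above 0 in 2 samples only, and the relation cannot be read.

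Among members, those most like Myh4 over the 11 samples in log2 CPM were Actn3 (r = 0.88), Pvalb (0.86) and Mybpc2 (0.79), and the least like was Myh1 (0.00). Among all other tested genes, with predicted genes (Gm and Rik symbols) left out, the 10 most like Myh4 had r from 0.85 to 0.93. They were chosen for this likeness. Popdc2, of a membrane protein family of striated muscle, led them at 0.39 to 2.29 TPM, from 4 to 22 counts. The others were Trim46, Aox1, Tspyl5, Myoc, Cyth3, Ttc28, Rcan2, Fndc4 and Ccdc159.

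The design compares dermatitis skin by whether the transplanted marrow cells were of the PDGFRα lineage. In a fit over all 14588 genes that passed the filter (edgeR's quasi-likelihood test), all 32 tested members had a log2 fold change, positive minus negative, above 0, but 0 passed a Benjamini-Hochberg adjusted p of 0.05. Over all tested genes 0 (0%) passed that threshold and 48.6% had a log2 fold change above 0. The members' log2 fold changes ran from 0.16 (Myh1) to 0.94 (Mb), with a median of 0.42, against a median of -0.01 over all tested genes. That of Myh4 was 0.66 ± 0.63 (SE), at an adjusted p of 0.597 by edgeR. The members come from the same fibers and move together, so 32 genes are not 32 separate observations. At an unadjusted p under 0.05 there were 2 members, 6.25% of those tested, both higher, where 7.05% of all tested genes were higher at that p.

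Negative replicate 7 and positive replicate 3 decided the size of this difference. Without negative replicate 7 the median was 0.67 and 28 of 32 members had an unadjusted p under 0.05 in the positive direction, where 10.9% of all tested genes did. None of them passed after adjustment, with a smallest edgeR adjusted p of 0.0791, where 0.0206% of all tested genes did. Without positive replicate 3 the median was 0.24 and Myh1 turned to -0.16. Of the 32 tested members, 15 were highest in negative replicate 7 and 14 in positive replicate 3, while 22 were lowest in negative replicate 2.

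**Figure D4:**
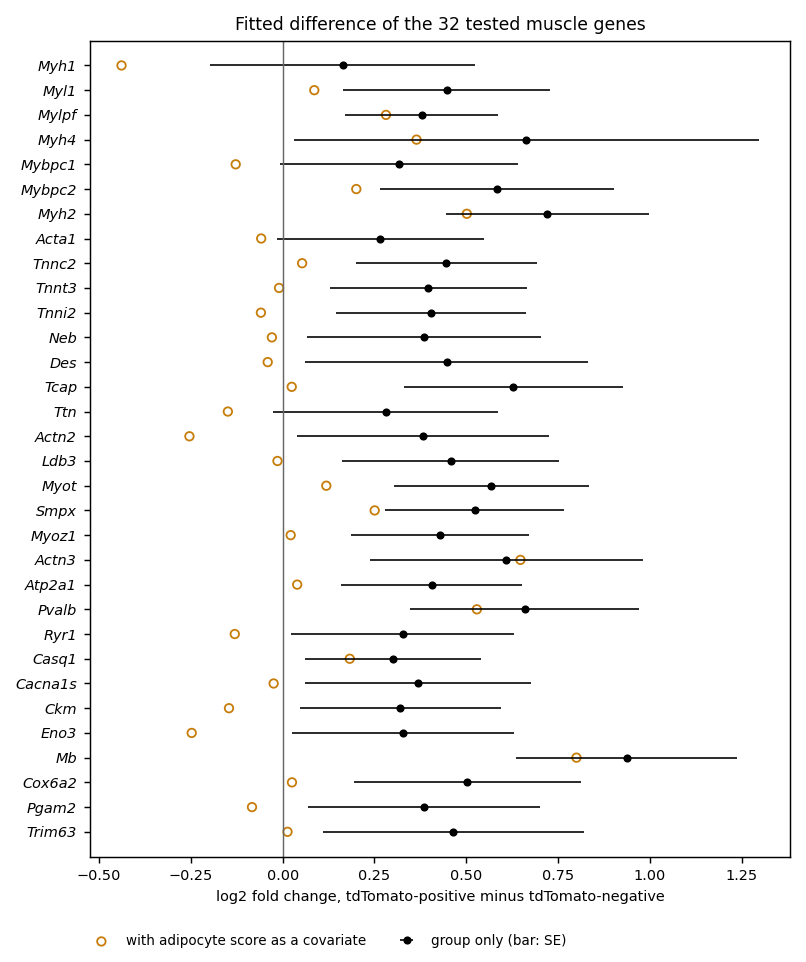
Fitted log2 fold change (tdTomato-positive minus tdTomato-negative) of the 32 tested members, ordered by role, with the standard error as a bar, and open circles for the fit with the adipocyte score as a covariate. All 32 lie above 0 in the fit by group, from 0.16 to 0.94, and 17 lie above 0 with the covariate.

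Mb, myoglobin, which stores oxygen in muscle, had the smallest p of the members. It had 102, 136, 157 and 77.01 TPM in positive replicates 1 to 4, and 37.2, 46.8 and 113 TPM as the lowest, median and highest of the negative group. Positive replicates 2 and 3 lay above all negative samples, and the groups overlapped. The fitted difference in log2 was 0.94 ± 0.30 (SE), at an unadjusted p of 0.00904 and adjusted p of 0.248 by edgeR. Myh2 was the other member under an unadjusted p of 0.05, at 39.7 ± 10.2 TPM (SD, n = 4) in the positive and 23.9 ± 11.4 TPM (SD, n = 7) in the negative group. For Myh2 this difference was 0.72 ± 0.28 (SE), at an unadjusted p of 0.0231 and adjusted p of 0.256 by edgeR. The test with sample quality weights (limma-voom) called 4 members higher, Mb, Myh2, Pvalb and Cox6a2, a subunit of muscle cytochrome c oxidase, where it called 6.73% of all tested genes higher. DESeq2 called 0 members and 83 of all tested genes (0.569%). At an unadjusted p under 0.05 by DESeq2 there were 6 of the 32 tested members, all higher. Of all tested genes 17.6% were under that p in either direction, a share close to that of the members. The share of all genes that were higher at that p was not taken for DESeq2.

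Tested thin-filament genes had log2 fold changes of 0.27 to 0.45, and 0 passed. Acta1 had 915, 612, 1164 and 700.3 TPM in positive replicates 1 to 4, and 347, 624 and 1326 TPM as the lowest, median and highest of the negative group. The log2 difference of Acta1 was 0.27 ± 0.28 (SE), at an adjusted p of 0.641 by edgeR. The fast troponins T and C, Tnnt3 and Tnnc2, stood between 367 and 741 TPM in the positive samples. In the negative samples they stood between 206 and 728 TPM. Their log2 fold changes were 0.40 and 0.45. Tnni2, fast troponin I, and Neb, nebulin, which spans the thin filament, had 0.40 and 0.38.

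Ttn, titin, the spring that runs from Z-disc to the middle of the sarcomere, had 106, 71.2, 140 and 107 TPM in positive replicates 1 to 4. The negative group had 42.02, 71.8 and 182 TPM of it as the lowest, median and highest. Des, desmin, the filament protein that links Z-discs and is also made by smooth muscle, had 223, 86.9, 324 and 168 TPM in the positive group and 64.9, 138 and 307 TPM in the negative group in the same order. In both, positive replicate 2 was the lowest of its group and the groups overlapped. The Z-disc genes Tcap, Myot, Ldb3, Myoz1, Actn2 and Actn3 and the sarcomere gene Smpx had log2 fold changes of 0.38 to 0.63, and adjusted p of 0.303 to 0.572 in edgeR's test.

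Calcium-handling genes had log2 fold changes of 0.30 to 0.66, and 0 passed. Atp2a1, the fast-fiber calcium pump SERCA1, had 420, 279, 615 and 451 TPM in positive replicates 1 to 4 and 220, 302 and 586 TPM as the lowest, median and highest of the negative group. Pvalb had a log2 difference of 0.66 ± 0.31 (SE), at an adjusted p of 0.309 by edgeR. Casq1, which stores calcium, Ryr1, the release channel, and Cacna1s, the voltage sensor, had log2 fold changes of 0.30, 0.33 and 0.37. Of 18 further genes of calcium handling and excitation, 17 were tested, 15 lay above 0 and 0 passed. Among these, Sln (sarcolipin, an inhibitor of the pump) had 178 ± 76.4 TPM (SD, n = 4) in the positive and 128 ± 71.3 TPM (SD, n = 7) in the negative group.

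Energy genes of muscle other than Mb had log2 fold changes of 0.32 to 0.50, and 0 passed. Ckm, the muscle creatine kinase, which regenerates ATP, had 329, 259, 567.83 and 331 TPM in positive replicates 1 to 4 and 151, 276 and 538 TPM as the lowest, median and highest of the negative group. Eno3 and Pgam2, the muscle forms of the glycolytic enzymes enolase and phosphoglycerate mutase, had log2 fold changes of 0.33 and 0.39. Of 21 further energy genes tested, 21 lay above 0, 0 passed, and the median was 0.39. Aldoa and Ldha, glycolytic enzymes of many tissues, led them at 1001 and 545 TPM, with log2 fold changes of 0.00 and 0.24.

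Trim63, MuRF1, the ubiquitin ligase that breaks down sarcomere proteins in wasting muscle, had 11.6, 4.41, 17.9 and 10.3 TPM in positive replicates 1 to 4. In the negative group it had 4.15, 7.54 and 14.8 TPM as the lowest, median and highest, and the log2 difference was 0.46 ± 0.36 (SE), at an adjusted p of 0.503 by edgeR. Of 16 genes of muscle atrophy, 7 lay above 0, 9 below, and 0 passed, with a median of -0.03. Fbxo32, the other ubiquitin ligase of that program, had 24.4 ± 6.99 TPM (SD, n = 4) in the positive and 31.2 ± 5.42 TPM (SD, n = 7) in the negative group, and an edgeR adjusted p of 0.291. Most genes of this list, led by Ctsl and Mt2 at 592 and 443 TPM, are made by many cell types.

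Other genes of the sarcomere and the fiber membrane lay above 0 in 29 of 31 tested cases, with a median of 0.39, and 0 passed. Tpm1, a tropomyosin that skin cells other than muscle also make, had 332 ± 52.3 TPM (SD, n = 4) in the positive and 439 ± 102 TPM (SD, n = 7) in the negative group, and Tpm2 237 ± 63.0 against 196 ± 61.0 TPM. Single genes of muscle stem cells and of new fibers were near 0. Pax7, which marks satellite cells, never passed 0.10 TPM, and Myh3, the embryonic heavy chain, never passed 0.92 TPM. Myh8, the perinatal heavy chain, had 5.50 ± 4.49 TPM (SD, n = 4) against 4.64 ± 2.21 TPM (SD, n = 7). It shares stretches of 50 bases with Myh1, Myh2 and Myh4, so how many of its reads came from those genes is not known. Of 12 myogenic factor and satellite cell genes tested, 9 lay above 0 and 0 passed, and of 7 developmental genes 6 lay above 0 and 0 passed. The most abundant in these 2 lists were Mef2a and Mef2d at 42.2 and 23.7 TPM, and Dclk1 and Ncam1 at 18.3 and 8.54 TPM. Of 7 tested genes of the nerve-muscle junction, 4 lay above 0 and 0 passed, and its most abundant, Agrn and Lrp4, averaged 42.7 and 21.2 TPM.

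Fat and hair genes were measured beside the muscle genes, and 0 of either list passed. Adipoq, adiponectin of fat cells, had 89.3, 89.0, 137 and 129 TPM in positive replicates 1 to 4. The negative samples had 52.0 to 82.7 TPM, so the groups did not overlap, as in 1.67% of all tested genes by CPM. Fabp4 and Cfd, the most abundant fat genes, averaged 1147 and 364 TPM. Of 11 tested adipocyte genes, 10 lay above 0 and 0 passed. Their summed level over all 12 listed genes was 1809 to 2928 TPM in the positive and 1574 to 2111 TPM in the negative samples. With the mean z-score of this list as a covariate the members' median was 0.02, and 17 of 32 lay above 0. Tchh had 479, 79.2, 167 and 2121 TPM in the positive group and 77.8, 3939 and 6131 TPM as the lowest, median and highest of the negative group. Its lowest value was in negative replicate 7, the sample richest in muscle genes. Positive replicate 2 had nearly as little Tchh, 79.2 TPM. Its muscle sum, 4676 TPM, was the lowest of its group and above the negative median of 4090 TPM. Krt71, a hair follicle keratin, was as abundant as Tchh, averaging 2408 TPM. All 16 hair follicle genes lay below 0, 0 passed, and their summed level was 312 to 8511 TPM in the positive and 212 to 24856 TPM in the negative samples. The members' median was 0.18 once the hair list's score entered the fit. What part fat, hair or the depth of the skin piece had in the muscle difference was not tested.

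**Figure D5:**
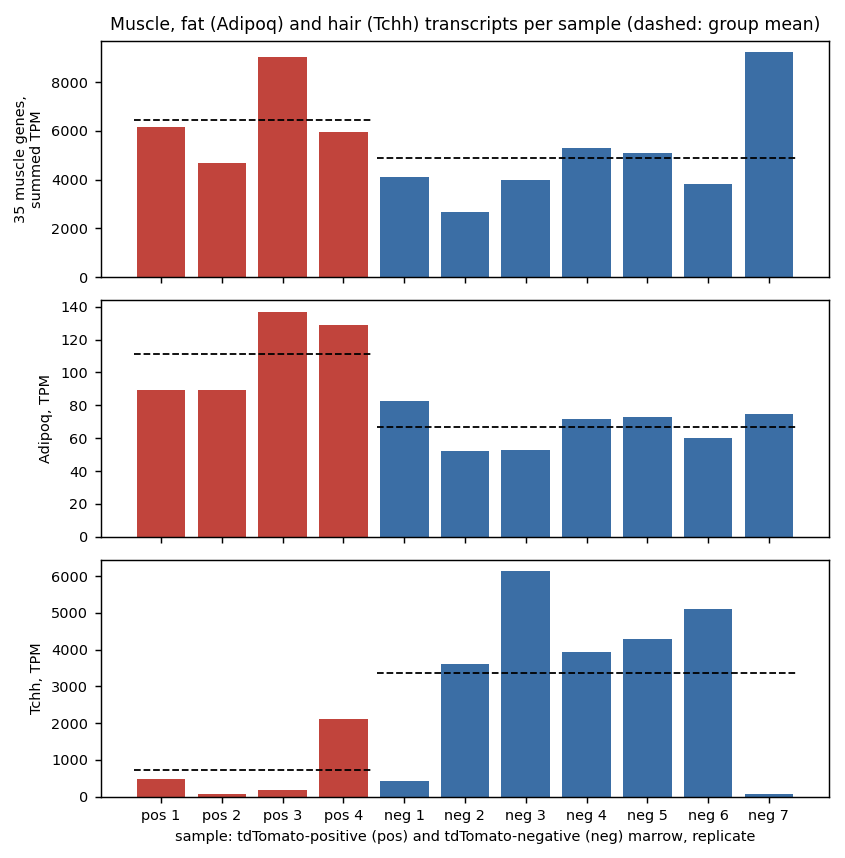
Summed TPM of the 35 muscle genes (top), TPM of Adipoq (middle) and TPM of Tchh (bottom) in each sample, with tdTomato-positive samples in red on the left, tdTomato-negative samples in blue and dashed lines at the group means. Negative replicate 7 has the highest muscle sum, 9232 TPM, and 77.8 TPM of Tchh, the lowest of all. Positive replicate 2, with 79.2 TPM of Tchh, has the lowest muscle sum of its group, 4676 TPM, above the negative median of 4090 TPM.

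Smooth muscle, which lines vessels and raises hairs, is made of other contractile genes. Of 12 tested smooth muscle genes, of which Des is also a member, 8 lay above 0, 4 below, and 0 passed, with a median of 0.20. Acta2, smooth muscle actin, had 62.6 ± 13.3 TPM (SD, n = 4) in the positive and 70.4 ± 12.0 TPM (SD, n = 7) in the negative group. Myh11 had 24.3 ± 6.02 against 17.1 ± 5.44 TPM, with an edgeR adjusted p of 0.265. Macrophage genes, also higher on average in the positive group (7 of 7 above 0, median 0.60, 0 passed), summed to 554 to 1580 TPM in the positive and 492 to 843 TPM in the negative samples. Their most abundant genes were Lyz2 and Mrc1, averaging 456 and 94.3 TPM. Epidermal genes, led by Krt14 and Krt1 at 8164 and 3857 TPM, had 8 of 9 above 0 with a median of 0.43 and 0 passed. Fibroblast genes, led by Col3a1 and Col1a1 at 1682 and 1402 TPM, had 8 of 8 above 0 with a median of 0.34 and 0 passed.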

How the data were processed

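Expected counts and TPM were deposited by the authors as RSEM gene tables, 1 per sample, per the file headers. Per the submitters' processing notes, reads went through bcl2fastq, Trim Galore and RSEM on GRCm38; versions and aligner: not given in the sources used here. Expected counts, as deposited, are estimated read numbers without normalization, in which RSEM divides reads shared by similar genes. The TPM deposited by the authors are corrected for effective length. Libraries were depleted of ribosomal RNA, per the labels' protocols.

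Expected counts were rounded to whole numbers. Genes passing filterByExpr were scaled by TMM and tested with edgeR 4.0.16 (glmQLFit in legacy mode, glmQLFTest, R 4.3.3) with group as the only term, over all 11 samples, and p-values were Benjamini-Hochberg adjusted over all tested genes. Standard errors were taken as the size of the log2 difference over the root of the F statistic. Alternatives used DESeq2 1.42.0 and limma 3.58.1 (limma-voom with and without sample quality weights, and limma-trend with a pseudocount of 1 or 0.1 TPM). The edgeR test was also run on counts simulated for each gene on its own, while the members move together. That run does not show whether differences of the members' size could be called. Correlations used 100000 resamples. A floor of 3 counts covers counting error only. The members and lists were chosen with earlier results of these data known. Named genes were set by rule. They were 19 members and the member of smallest p by sample, and from other lists the 2 most abundant genes and any called. The rule also took the 10 genes most like Myh4, with predicted genes left out. Pax7, Myh3, Myl2, Myl3, Tnni1, Myoz2, Casq2, Ankrd2, Fbxo32, Myh8, Adipoq, Tchh, Myh11, Nkx2-5 and Myh6 were named beyond that rule. Of the listed symbols, Hjv, Mymk and Mymx were not analysed here. One gene that the naming rule selects is not reported here.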

Additional observations from a re-analysis of the deposited data

Results flagged for a closer look

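In 22 of 79 sets of values (a member or a sum in 1 group) a single sample lay far from the rest of its group, where chance gives about 4 (1 in 20). The sets are not independent, since 20 of the 22 are the same sample, negative replicate 7, read through different muscle genes. Its value against the range of the other 6 negative samples was 48.0 TPM against 14.1 to 27.9 for Myh2, 745 against 212 to 433 for Myl1, 675 against 206 to 398 for Tnnt3 and 538 against 153 to 297 for Tnni2. Ttn had 182 TPM there against 42.02 to 92.7, Neb 142 against 35.5 to 72.7, Atp2a1 586 against 220 to 363, and Eno3 264 against 69.1 to 142. Pgam2 had 104 TPM against 24.9 to 47.4, Mybpc1 133 against 35.3 to 76.0, Mybpc2 59.2 against 13.4 to 31.7 and Casq1 30.5 against 9.92 to 17.8. Ryr1 had 37.1 TPM against 10.1 to 19.7, Cacna1s 16.2 against 4.04 to 9.20, Myoz1 46.0 against 14.5 to 26.7 and Tcap 192 against 57.9 to 96.1. Ldb3 had 80.7 TPM against 21.8 to 44.0, Smpx 52.9 against 18.1 to 30.6 and Cox6a2 115 against 28.3 to 53.5. The sum of all members there was 9232 TPM, against 2680 to 5301 TPM.

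Tnnc1 had 0.38 TPM in negative replicate 4, from 1 count, and 0 in the other negative samples. Positive replicate 2 had 9.11% of its heavy chain TPM from Myh2, against 3.13% to 3.56% in positive replicates 1, 3 and 4.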

How the results depend on the processing

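Of the 736 results for single members under alternatives, 714 kept direction and side of the threshold, including all under RLE and upper-quartile scaling, no filter, DESeq2, limma-voom and limma-trend with either pseudocount. The members' median was 0.42, and 0.24 to 0.67 when each sample was left out, with 31 to 32 members above 0 and 0 called. The ratio of group means of their share of counts was 1.27, and 1.13 to 1.49 when each sample was left out. Quality-weighted limma-voom called 4 members (Mb, Myh2, Pvalb and Cox6a2, with log2 fold changes of 1.09, 0.92, 1.01 and 0.71), and put Myh1 at -0.20. Adjusted p of Mb ran from 0.0247 to 0.673 over 23 alternatives. The log2 fold change of Myh4 ran from 0.36 to 1.67 over the same alternatives, and it passed in none. With the adipocyte covariate the median was 0.017 with 17 members above 0, and 15 members turned below 0: Acta1 -0.059, Ckm -0.15, Myh1 -0.44, Tnnt3 -0.0099, Tnni2 -0.059, Ttn -0.15, Neb -0.029, Actn2 -0.25, Eno3 -0.25, Pgam2 -0.084, Mybpc1 -0.13, Ryr1 -0.13, Cacna1s -0.025, Des -0.041 and Ldb3 -0.014. With the hair covariate Acta1 stood at -0.000509, and without positive replicate 3 Myh1 stood at -0.16 (up to 0.39 when other samples were left out). The causes were not tested. A replicate block over the 4 shared numbers gave a median of 0.69 with 0 members called. The same 8 samples without the block, a fit added later, gave 0.68. Both fits leave out negative replicates 5, 6 and 7, and without negative replicate 7 alone the median was 0.67. Whether the numbers pair the samples is not labelled. Same-numbered samples correlated at -0.02, -0.05, -0.05 and 0.24, and differently numbered ones at -0.64 to 0.50. So few values cannot decide it. A slow minus fast difference could not be fitted, since no slow gene passed the filter, and without a filter it would rest on at most 10 counts per sample.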
